A study of Mus musculus with 12 samples.

Results

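The proteasome subunit genes were taken from the expression table by symbol: every gene called Psma, Psmb, Psmc or Psmd followed by a number, and Psme1 to Psme4. This gave 42 of the 19037 genes in the table, of which 41 passed the filter on low counts. The member that did not pass was Psmb11, the catalytic subunit of the thymus proteasome, with 0 to 5.28 counts per library. The constitutive marker Psmb5 stood at 198 to 249 TPM (the deposited transcript level, scaled for transcript length and library) and the immunoproteasome marker Psmb8 at 0.57 to 1.49 TPM, so the core proteasome was plainly expressed and Psmb8 was near the detection limit in every library.

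The proteasome degrades proteins that carry ubiquitin chains. Its barrel-shaped core holds outer rings of alpha subunits, which gate the entrance, and inner rings of beta subunits, among which Psmb5, Psmb6 and Psmb7 carry the proteolytic sites. A cap of Psmc ATPases and Psmd non-ATPase subunits binds ubiquitin chains, unfolds the substrate and feeds it into the core, and the Psme activators open the core in place of the cap. In immune cells, and in hepatocytes and other cells exposed to interferon gamma, Psmb8, Psmb9 and Psmb10 take the places of Psmb5, Psmb6 and Psmb7 in newly built cores, and Psme1 with Psme2 forms the activator PA28; both changes are known for supplying peptides to MHC class I molecules.

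All 12 libraries came from AML12 cells, a hepatocyte line derived from a mouse carrying a transgene for human TGF-alpha, and there were 3 libraries in each of 4 groups. Controls were set beside FK228 (HDI in the library titles; romidepsin, which inhibits class I histone deacetylases), beside overexpression of class I deacetylases bearing the YF mutation, and beside FK228 and YF together. Control and FK228 descriptions begin with GFP, which no label spells out, so these cells may carry a GFP vector. Neither the dose and time of FK228 nor the enzymes mutated, the vector or the number of clones are stated. Nor do the labels say that replicates were separate cultures, in which case the p-values cover the spread of these samples only, possibly a technical one.

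The libraries held 23664446 to 26122998 counts, and the proteasome genes took 0.665% to 0.814% of them. Hdac1, a class I deacetylase, was 2.04 ± 0.06 (SE) higher on the log2 scale in YF than in control libraries (adjusted p = 6.116e-16, edgeR quasi-likelihood test), and 1.99-fold higher again in FK228+YF than in YF libraries (adjusted p = 2.011e-12). The YF libraries with and without FK228 thus differed in this transcript as well; its part in the comparisons between them was not tested. Of 7 hepatocyte markers, Apob, Trf and Hnf4a were at 429, 519 and 178 CPM (library-scaled counts) in control libraries. Cebpa, Ttr and Apoa1 were at 22.4, 9.03 and 1.43 CPM, and Alb was at 0.0387 CPM, close to 0. Krt19, a cholangiocyte marker, was at 607 CPM there. The summed hepatocyte markers were lower in every FK228 library (610 to 712 CPM) and every FK228+YF library (549 to 580) than in control (1110 to 1210) or YF libraries (1130 to 1200). Within the similar sums of control and YF, the means of Trf (627 CPM with YF) and Alb (0.256) were higher with YF. Those of the other markers, among them Hnf4a (121.5), were lower. As bulk samples, these libraries cannot tell fewer cells of a kind from less RNA per cell.

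FK228 changed many proteasome genes by small amounts and a few by large ones. Of the 41 tested members, 17 were higher and 9 lower in FK228 than in control libraries at an adjusted p below 0.05 (edgeR), against 33.2% of all 13346 tested genes called higher and 35.5% called lower. The share called higher was 41.5% and the share called lower 22%, and the median log2 fold change was 0.09 over the members and -0.01 over all genes. Only 2 members rose and 3 fell by at least 1.5-fold, where 17.5% and 16.1% of all genes did so: Psmb9 and Psmd4 rose, and Psmb10, Psme1 and Psmd10 fell.

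With YF alone few members were called. Psmb9 and Psmd13 were higher and Psmb10, Psme1, Psme2 and Psmd10 lower, that is 2 and 4 of 41, against 18% and 14.6% of all genes. The call of Psmd13 (log2 fold change 0.14, adjusted p = 0.04467, edgeR) was lost in most re-fits: without any 1 of the libraries of the YF group (0.12 to 0.17) or of the FK228+YF group (0.13 to 0.14), without FK228 replicates 1 or 2 (both 0.13), and without control replicates 1 (0.15) or 2 (0.10). Psmb9 was then the only member called higher, except without control replicate 1, where Psmb7 was called as well (0.20, adjusted p = 0.0224). Of the 14 genes of the constitutive core, none was called with edgeR in YF against control; 1 had an unadjusted p below 0.05, and DESeq2 called 0. Besides Psmb7, the only call that leaving out a library gave in the core was that of Psma1 without YF replicate 2 (-0.17, adjusted p = 0.0418).

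With both treatments, 21 members were higher and 11 lower than in control libraries, against 38.8% and 38.6% of all genes, and the members' median was 0.14 against 0.00 for all genes. At 1.5-fold or more, 8 rose and 4 fell, where 24% and 23.1% of all genes did so. Psma4, Psmb8 and Psmc2 were called in no comparison of the fit over all 12 libraries. In the comparison of FK228+YF with YF, 22 were higher and 8 lower, where 34.7% and 35.9% of all genes were called; in that with FK228, 18 were higher and 6 lower, where 26.6% and 26.3% were called. The plot of fold changes by member shows these calls by role.

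**Figure D1:**
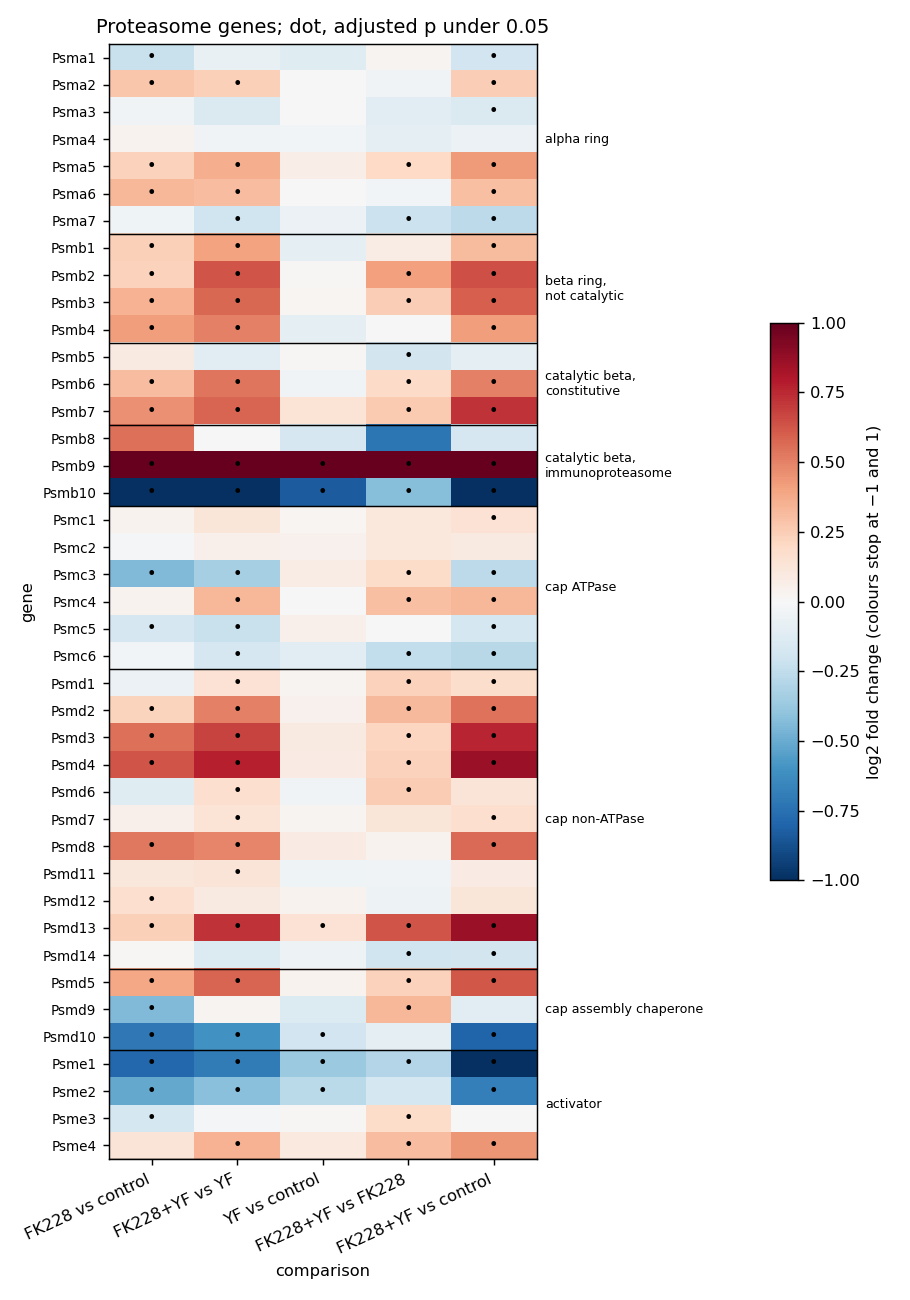
Log2 fold change of the tested proteasome genes (rows, grouped by role) in each comparison (columns), with dots on calls at an adjusted p below 0.05. Psmb9 and Psmb10 stand out with opposite signs, and the rows of the beta ring other than Psmb5 are higher in the columns that add FK228.

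The immunoproteasome subunits did not move together. Psmb10 fell and Psmb9 rose under each treatment, while Psmb8 was called in no comparison of the fit over all 12 libraries. Psmb10 encodes the subunit that takes the place of Psmb7 and lies on chromosome 8 from 105935728 to 105938392 (GRCm38). It was the most abundant of the immunoproteasome genes in control libraries, at 45.9, 54.4 and 47.3 TPM, and stood at 4.76, 5.50 and 6.01 TPM with FK228, at 29.8, 27.3 and 30.6 with YF, and at 4.09, 4.75 and 3.69 with both. The control, YF and FK228 libraries formed separate ranges, and those with both treatments lay just below the lowest FK228 library. FK228 lowered Psmb10 8.48-fold (log2 fold change -3.08 ± 0.10 SE, adjusted p = 2.288e-16, edgeR), YF 1.78-fold (-0.83 ± 0.08, adjusted p = 1.041e-07) and both together 11.4-fold (-3.51 ± 0.10, adjusted p = 1.586e-17). Within YF cells FK228 lowered it by a log2 of -2.68 ± 0.10 (adjusted p = 2.76e-15), and adding YF to FK228 lowered it by a further -0.43 ± 0.12 (adjusted p = 0.005043).

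Psmb9, the counterpart of Psmb6, started low. Its gene lies on chromosome 17 from 34182030 to 34187330, inside the MHC. Control libraries had 17, 24 and 10 counts (1.19, 1.62 and 0.70 TPM), FK228 libraries 73, 66 and 50 (4.53, 4.36 and 3.72 TPM), YF libraries 58, 54 and 72 (4.30, 3.71 and 5.02 TPM) and FK228+YF libraries 179, 152 and 142 (12.3, 10.6 and 10.5 TPM). Every treated library was above every control library, the FK228 and YF libraries overlapped, and the libraries with both treatments were above all others. The rise was 3.89-fold with FK228 (log2 1.96 ± 0.26, adjusted p = 1.049e-06, edgeR), 3.57-fold with YF (1.84 ± 0.26, adjusted p = 1.751e-05) and 9.84-fold with both (3.30 ± 0.24, adjusted p = 3.892e-11).

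Psmb8, the counterpart of Psmb5 and a neighbour of Psmb9 on chromosome 17 (34198195 to 34201454), had 16, 24 and 26 counts in control, 25, 35 and 32 in FK228, 17, 13 and 29 in YF and 17, 13 and 25 in FK228+YF libraries. The counts of all groups overlapped, though in CPM every FK228 library (1.02 to 1.42) was just above every control library (0.62 to 1.01). Neither the value with FK228 against control, 0.55 ± 0.33 (adjusted p = 0.1368, edgeR), nor that of FK228+YF against FK228, -0.72 ± 0.34 (adjusted p = 0.07704), passed the test. Without FK228+YF replicate 3, however, Psmb8 was called lower in FK228+YF than in FK228 libraries. At this depth no change of Psmb8 was called with all 12 libraries, and that 1 call depended on the libraries fitted.

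Set against their constitutive counterparts in each library, the replaceable subunits were a small share except Psmb10. Psmb10 made 14.9% ± 1.97 (SD, n = 3) of the summed TPM of Psmb10 and Psmb7 in control, 1.46% ± 0.06 in FK228, 8.09% ± 0.66 in YF and 0.91% ± 0.11 in FK228+YF libraries. Psmb9 made 0.35% ± 0.14 of its pair with Psmb6 in control, 1.08% ± 0.13 in FK228, 1.24% ± 0.16 in YF and 2.35% ± 0.21 in FK228+YF libraries. For Psmb8 with Psmb5 the group means were 0.36% to 0.57%, with SDs of 0.09 to 0.16. The ratio of Psmb9 to Psmb10 thus ran from 0.0235 in control to 2.69 in FK228+YF libraries, where the order of the genes was the opposite of that in control cells; these ratios are descriptions, since an exact permutation test of 3 against 3 libraries cannot go below 0.1.

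**Figure D2:**
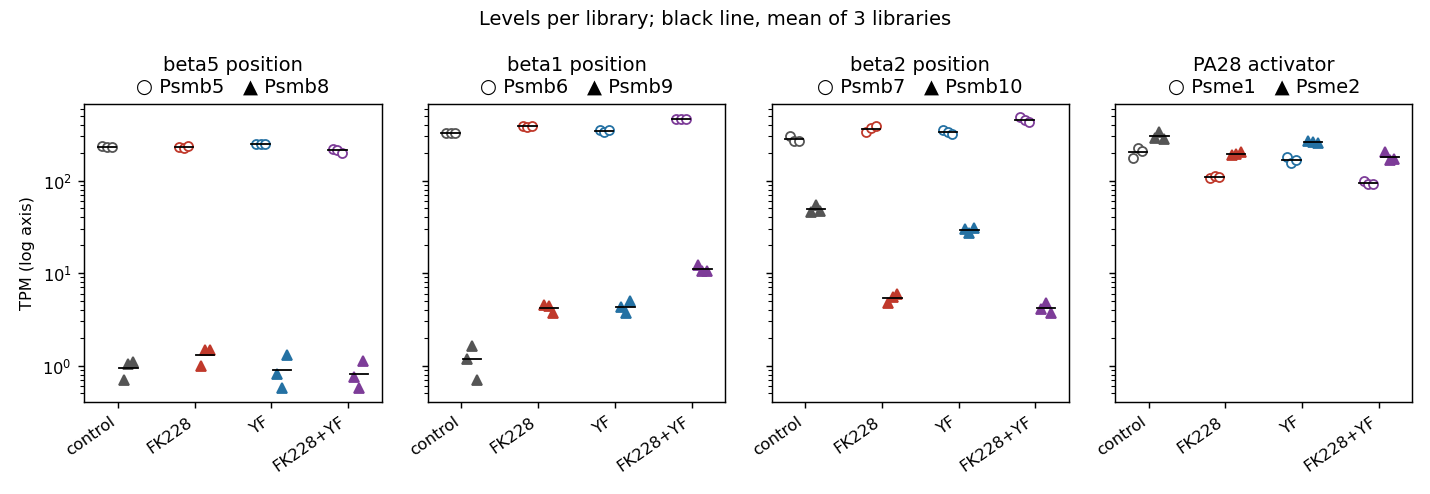
TPM of each replaceable catalytic subunit and its constitutive counterpart in every library (points, log axis) by group. Psmb10 drops from 45.9 to 54.4 TPM in control to below 6.1 TPM in all libraries with FK228, Psmb9 climbs from at most 1.62 to over 10 TPM with both treatments, and Psmb8 stays between 0.57 and 1.49 TPM.

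Leukocytes hold immunoproteasome without stimulation, so their markers were read beside these genes. The summed level of 8 leukocyte markers was 4.32 to 4.93 CPM in control, 23.9 to 29.5 in FK228, 7.66 to 10.2 in YF and 49.4 to 58.7 in FK228+YF libraries. Most of it was Cd68, a lysosomal protein (2.53, 22.8, 6.84 and 49.8 CPM as group means), while Ptprc, the pan-leukocyte CD45, was at 1.15, 1.51, 1.16 and 0.68 CPM. Adgre1 was at 0 in the control and Cd3e in the YF and FK228+YF libraries. Like Psmb9, the marker sum was lowest in control and highest with both treatments. Unlike Psmb9, which overlapped between FK228 and YF libraries, it was higher in FK228 than in YF libraries. The part of the marker sum in the result was not tested. Cholangiocyte markers (3 of 4 in the table, none at 0) summed to 617 to 784 CPM in control, 255 to 272 in FK228, 346 to 391 in YF and 148 to 156 in FK228+YF libraries. The groups ranked in this sum as in Psmb10 and Psme1. Most of the sum was Krt19 (607, 173, 284 and 107 CPM as group means), and Sox9 (21.2, 13.5, 17.1 and 11.9) had the same ranking. Krt7 (95, 78.9, 63.0 and 33.9) did not, being higher in FK228 than in YF libraries. Stellate or fibroblast markers summed to 7.67 to 10.5, 31.5 to 33, 12.4 to 17.9 and 32 to 39.9 CPM. Most of this was Des (7.43, 26.4, 12.7 and 31.4 CPM as group means), followed by Col1a1 (1.33, 5.42, 1.85 and 4.43). The other 4 markers were below 1 CPM in every group. Among them, Lrat was at 0 in all groups but control (0.0128 CPM), and Col1a2 was at 0 with YF. Their parts were not tested either.

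The genes of PA28 fell together. Psme1, on chromosome 14 from 55578494 to 55581527, stood at 176, 227 and 208 TPM in control, 107, 113 and 111 in FK228, 178, 156 and 165 in YF and 98.3, 91.8 and 91.5 in FK228+YF libraries. The FK228 libraries lay below all libraries without FK228, while YF and control overlapped at their edge in TPM. In CPM every YF library (104 to 113) was below every control library (119 to 153). The log2 fold change was -0.78 ± 0.08 with FK228 (adjusted p = 4.063e-08, edgeR), -0.37 ± 0.08 with YF (adjusted p = 0.00114) and -1.08 ± 0.08 with both (adjusted p = 2.334e-10).

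Psme2, its partner in the ring and a close neighbour (55587440 to 55591101), was at 286, 332 and 282 TPM in control, 191, 194 and 201 in FK228, 270, 260 and 257 in YF and 203, 168 and 173 in FK228+YF libraries. It was again lower in every library with FK228 than in any without. The log2 fold changes were -0.52 ± 0.07 with FK228 (adjusted p = 3.584e-06, edgeR), -0.27 ± 0.07 with YF (adjusted p = 0.007203) and -0.69 ± 0.07 with both (adjusted p = 4.113e-08). The YF call ended without control replicate 2 (-0.21, adjusted p = 0.0501). The table also lists Psme2b, a retrogene copy, and how reads were split between the copies is not given.

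The other activators behaved differently. Psme3, the nuclear PA28 gamma, was at 82.7 to 89.6 TPM in control and 67.2 to 75.7 in FK228 libraries (log2 -0.18 ± 0.05, adjusted p = 0.003698, edgeR, and 0.0538 when fitted on these 2 groups alone). With both treatments its log2 fold change was 0.00. Psme4, the nuclear activator PA200, had a log2 fold change of 0.13 with FK228, which was not called (adjusted p = 0.05538) but was in 7 of 18 alternatives, among them DESeq2 (0.16) and the fits without control replicate 1 (0.15), FK228 replicate 1 (0.21) or FK228+YF replicate 2 (0.15). It rose with both (0.44 ± 0.06, adjusted p = 7.446e-07).

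Promoter sequence from RefSeq (GRCm38.p6; 250 bases before to 50 after each start) was at hand for 36 of the 42 members, in 39 windows. An interferon-stimulated response element (GAAA and GAAA with 2 bases between) was found in 4 of 39 member windows (Psmb3, Psmd4, Psmd9 and Psme1) and in 3.44% of all 32851 windows. A gamma-activated site (TTCNNNGAA) was in 2 (Psmb8 and Psmd2; 8.3% of all), and an antioxidant response element (TGACNNNGC), the kind of site that Nfe2l1 binds in proteasome genes, in 6 (Psmb5, Psmb6, Psmc6, Psmd12, Psmd9 and Psme4; 12.4% of all). An NF-kB site (GGG and TCC with 4 bases between) was in 10 (19.2% of all), CCAAT in 14 (37.4% of all) and a GC box (GGGCGG) in 23 (35.7% of all). Both strands were searched, and matches of different motifs may overlap. These matches describe letters in a window and not bound sites.

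The upstream stretches of Psmb10, Psme1 and Psme2, which fell under each treatment, and of Psmb5 as a member called in no comparison with control, are shown for their motif content. They lie before the start and outside annotated exons, 5′ to 3′ on the gene's own strand. Capitals mark the GC box (as its complement) in Psme2 and the antioxidant response element in Psmb5. No motif lies in the stretches of Psmb10 and Psme1. The interferon response element, NF-kB site and GC box of the Psme1 window fall outside its printed stretch, as does the NF-kB site of the Psme2 window. The stretches are chr8:105938445-105938642 (Psmb10, minus strand), chr14:55578249-55578359 (Psme1, plus), chr14:55591114-55591351 (Psme2, minus) and chr14:54618023-54618245 (Psmb5, minus).
Psmb10: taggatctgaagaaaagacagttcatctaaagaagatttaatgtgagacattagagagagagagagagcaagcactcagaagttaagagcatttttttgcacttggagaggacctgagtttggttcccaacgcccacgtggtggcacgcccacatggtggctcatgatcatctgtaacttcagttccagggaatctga
Psme1: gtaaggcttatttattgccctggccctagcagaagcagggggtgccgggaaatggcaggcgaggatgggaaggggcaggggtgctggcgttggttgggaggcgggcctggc
Psme2: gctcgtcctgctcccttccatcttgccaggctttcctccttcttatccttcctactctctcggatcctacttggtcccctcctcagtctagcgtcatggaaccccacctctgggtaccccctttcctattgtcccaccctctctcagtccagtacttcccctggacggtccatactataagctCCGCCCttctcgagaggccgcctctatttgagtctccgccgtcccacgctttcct
Psmb5: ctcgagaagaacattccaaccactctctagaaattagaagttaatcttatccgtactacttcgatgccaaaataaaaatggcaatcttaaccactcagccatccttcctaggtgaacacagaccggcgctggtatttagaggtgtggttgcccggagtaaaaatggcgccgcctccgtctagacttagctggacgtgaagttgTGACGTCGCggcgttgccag

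In the constitutive core, 6 of 7 beta genes rose with FK228, and alpha genes were called in both directions. All 4 non-catalytic beta genes and 2 of 3 catalytic ones were called higher with FK228 (edgeR), where 33.2% of all genes were, and the counts were the same with both treatments, where 38.8% were. Psmb5 was the exception. Psmb7 was at 307, 266 and 271 TPM in control, 335, 367.5 and 393 in FK228, 348, 334 and 316 in YF and 484, 454 and 425 in FK228+YF libraries. Its FK228+YF libraries were above all others. The log2 fold change was 0.46 ± 0.06 with FK228 (adjusted p = 2.282e-06) and 0.72 ± 0.06 with both (adjusted p = 1.473e-09), and 0.14 with YF, not called (adjusted p = 0.1012) except without control replicate 1 (0.20).

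Psmb6 was at 329, 331 and 326 TPM in control, 385, 375 and 394 in FK228, 351, 335 and 353 in YF and 460, 462 and 464 in FK228+YF libraries. These 4 TPM ranges did not overlap, but in CPM the control (231 to 245) and YF libraries (231 to 234) did. Psmb6 rose by 0.31 ± 0.06 with FK228 (adjusted p = 6.293e-05, edgeR) and by 0.50 ± 0.06 with both (adjusted p = 5.816e-08). Its value with YF, -0.03, was not called. Psmb5, the subunit with chymotrypsin-like activity and the target of bortezomib, was at 234, 233 and 231 TPM in control, 229, 226 and 235 in FK228, 246, 249 and 247 in YF and 221, 216 and 198 in FK228+YF libraries. It was called in no comparison with control.

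Psmb3, a structural beta subunit, had the highest level per length of all members in control libraries, at 665 ± 21.3 TPM (SD, n = 3), and stood at 785 ± 3.39 with FK228, 715 ± 13.1 with YF and 978 ± 19.03 with both. Psmb2 rose by 0.23 ± 0.06 with FK228 (adjusted p = 0.001502, edgeR) and by 0.64 ± 0.06 with both (adjusted p = 1.829e-09). Psmb1 and Psmb4 rose by 0.24 and 0.42 with FK228 and by 0.31 and 0.42 with both.

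Of the 7 alpha genes, Psma2, Psma5 and Psma6 rose with FK228 by 0.28, 0.23 and 0.33 on the log2 scale, and Psma1 fell by 0.22 (adjusted p = 0.001905, edgeR). With both treatments the same 3 rose, by 0.24, 0.43 and 0.30, while Psma1 (-0.19), Psma3 (-0.15) and Psma7 (-0.26) were lower. The call of Psma3 ended without control replicate 1 (-0.07), FK228 replicate 2 (-0.15), YF replicate 3 (-0.15) or FK228+YF replicates 2 or 3 (both -0.13), and in each other kind of re-fit but that with no count filter (-0.15 to -0.10). Psma7 was at 307, 306 and 308 TPM in control and at 244, 252 and 250 with both treatments.

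TPM carry no TMM scaling, so a difference in TPM between groups can part from the fold changes above. Summed over each class, the constitutive beta genes stood at 2571 ± 26.3 TPM (SD, n = 3) in control, 2977 ± 51.7 in FK228, 2716 ± 22.6 in YF and 3500 ± 38.9 in FK228+YF libraries. The alpha sum was 1912 ± 77.4, 1908 ± 34.3, 1992 ± 66.7 and 1921 ± 36.7 TPM in the same order. The beta sum was higher with FK228 than without in every library, while the ranges of the alpha sum overlapped. The summed immunoproteasome genes went from 51.3 ± 5.03 in control to 10.9 ± 0.58 in FK228, 34.5 ± 2.71 in YF and 16.1 ± 0.91 in FK228+YF libraries.

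**Figure D3:**
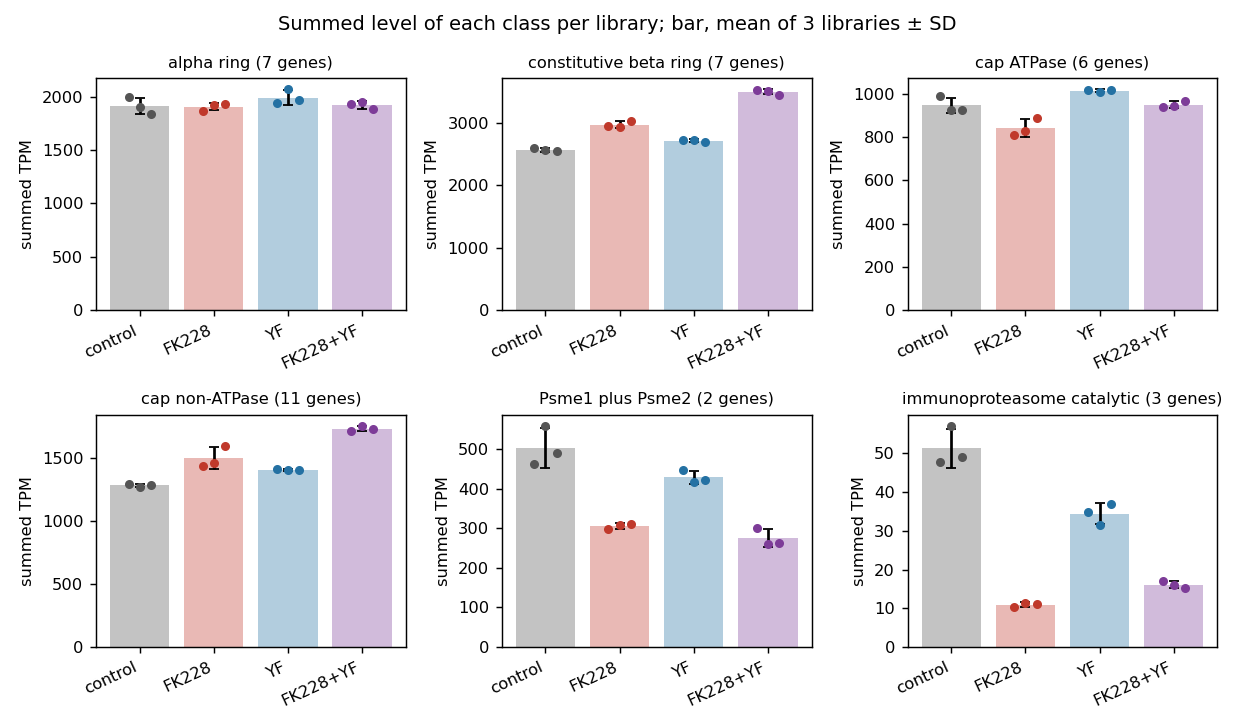
Summed TPM per library (points) of the genes of each proteasome class by group, with bars at the group means. The constitutive beta sum rises from 2571 in control to 3500 TPM with both treatments, and the sum of Psme1 and Psme2 falls from 504 to 275 TPM.

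In the cap, calls of the non-ATPase genes were mostly toward higher values. With FK228, 6 of 11 non-ATPase genes were higher and 0 lower (edgeR), and 0 of 6 ATPase genes were higher and 2 lower; both counts of 0 were also 0 at an unadjusted p below 0.05 and with DESeq2. Of all genes 33.2% were higher and 35.5% lower, so the count of lower ATPases was near the background, and it was 1 without control replicate 1, control replicate 3 or FK228 replicate 1. The difference between the classes was not tested. With both treatments the non-ATPase counts were 7 and 1 and the ATPase counts 2 and 3, against 38.8% and 38.6% of all genes. There 1 ATPase was higher without control replicate 2 or FK228+YF replicate 3, and 0 non-ATPase genes were lower without FK228+YF replicate 2. The summed ATPase TPM was 945 ± 36.6 in control, 842 ± 42.6 in FK228, 1014 ± 5.70 in YF and 949 ± 16.0 in FK228+YF libraries, and the non-ATPase sum was 1279 ± 12.6, 1494 ± 87.0, 1404 ± 7.52 and 1728 ± 18.0.

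Psmd4, a ubiquitin receptor of the cap, was the non-ATPase member with the largest rise with FK228. It was at 172, 161 and 172 TPM in control, 237, 234 and 258 in FK228, 187, 189 and 190 in YF and 297, 297 and 298 in FK228+YF libraries. The 4 TPM ranges did not overlap, but in CPM the control (158 to 178) and YF libraries (172 to 183) did. The log2 fold change was 0.63 ± 0.06 with FK228 (adjusted p = 3.356e-09, edgeR) and 0.86 with both. The value with YF, 0.08, was not called. Psmd3 and Psmd8, structural subunits of the lid, rose by 0.55 and 0.53 with FK228 and by 0.76 and 0.56 with both.

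Psmd13, another lid subunit, was highest with both treatments. It was at 97.97, 92.4 and 96.6 TPM in control, 97.3, 104 and 117 in FK228, 114, 112 and 108 in YF and 168, 173 and 167 in FK228+YF libraries, so those with both treatments lay far above the rest. Its log2 fold change was 0.24 with FK228 and 0.87 ± 0.05 with both; adding FK228 to YF raised it by 0.73 and adding YF to FK228 by 0.63.

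The largest falls of the cap were among its assembly chaperones and in an ATPase. Psmd10 (gankyrin), which escorts the ATPase ring during assembly, was at 98.7, 93.8 and 85.3 TPM in control, 46.5, 53.9 and 57.8 in FK228, 84.9, 87.8 and 83.9 in YF and 52.6, 52.6 and 49.5 in FK228+YF libraries. It fell by 0.71 with FK228 and by 0.80 with both, and no library with FK228 reached one without. Its fall of 0.19 with YF lost its call without control replicate 1 (-0.16), YF replicate 1 (-0.17) or YF replicate 3 (-0.17).

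Psmd9, a second chaperone, fell by 0.44 ± 0.07 with FK228 (adjusted p = 1.141e-05, edgeR), and its value with both, -0.11, was not called. The third, Psmd5, rose by 0.38 with FK228 and by 0.62 with both. The ATPase Psmc3 was at 118, 111 and 113 TPM in control and 75.3, 74.7 and 85.5 in FK228 libraries (-0.44 ± 0.05, adjusted p = 2.313e-07), with -0.26 for both treatments. Psmc6 was called with both treatments (-0.28) and not with FK228 (-0.03). Psmd2, which holds ubiquitin shuttles at the cap, rose by 0.22 with FK228 and by 0.54 with both, and the ATPase Psmc4 by 0.34 with both.

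The remaining calls of the cap against control were small. With FK228, Psmc5 (-0.17) lost its call without control replicate 1 (-0.13), control replicate 3 (-0.16) or FK228 replicate 1 (-0.15), and Psmd12 (0.17) without control replicate 2 (0.12). With both treatments Psmd1 (0.17) kept its call in each re-fit that left out a library. Psmc5 (-0.17) lost it without control replicate 1 (-0.14) or FK228+YF replicate 2 (-0.13), and Psmc1 (0.14) without control replicate 2 (0.12) or FK228+YF replicate 3 (0.13). The deubiquitinase Psmd14 (-0.19) lost it without FK228+YF replicate 2 (-0.14), and Psmd7 (0.17) without control replicate 2 (0.13).

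FK228 was tested against control and, in other libraries, against YF alone, so the effect could be read without and with the mutants. Of the members, 26 were called without YF and 30 with it, against 68.8% and 70.6% of all genes. In both, 22 were called, 16 higher and 6 lower, and all 22 had the same direction; over all genes 7547 were called in both and 96.5% of them had the same direction. Across the 41 members the fold changes correlated with Pearson's r = 0.946 and Spearman's rho = 0.843, and across the 38 without Psmb8, Psmb9 and Psmb10 with r = 0.894 and rho = 0.874; across all 13346 genes they were 0.806 and 0.835, so by rank the members were close to all genes. Genes are not independent replicates, and each axis rests on 6 libraries.

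**Figure D4:**
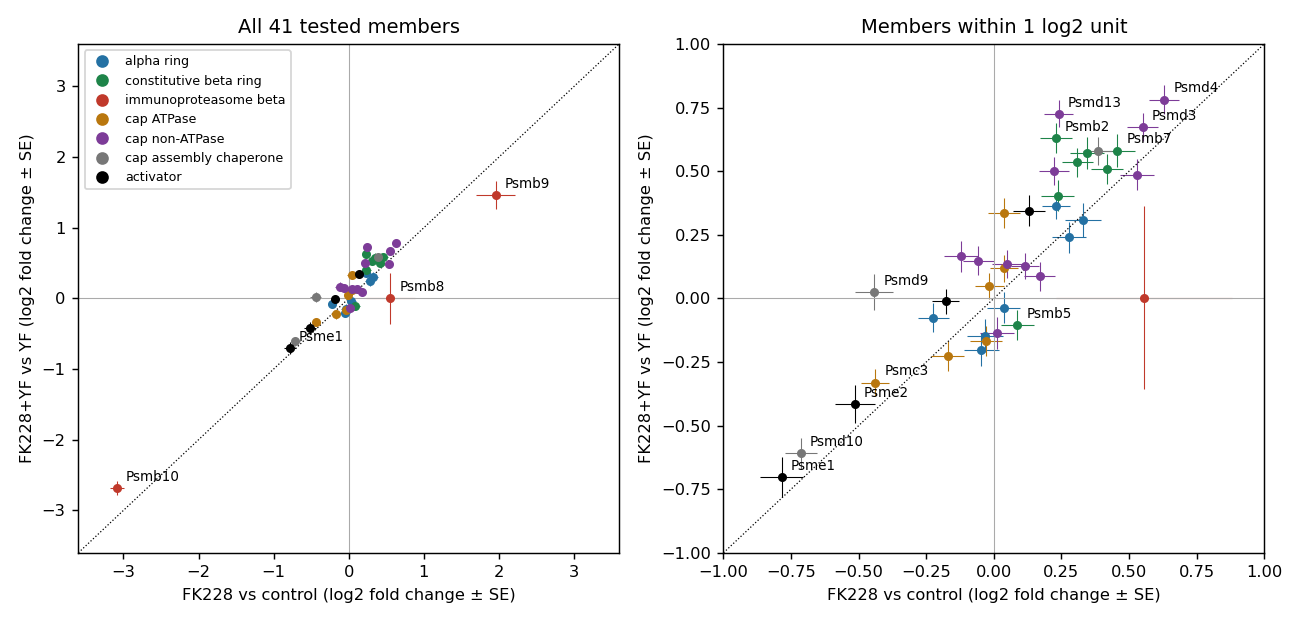
Log2 fold change of each member with FK228 in cells without YF (x axis) and with YF (y axis), for all members (left) and on a closer scale (right); the diagonal marks equal effects. Most members lie near the diagonal, and Psmd13 and Psmd9 lie above it.

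The effect of FK228 differed between cells with and without YF, by the interaction term of the edgeR fit, for 8 members. All 8 were toward higher values with YF (for Psmb10, a smaller fall), against 11.1% of all genes in that direction and 15.3% in the other. The opposite direction had 0 calls, 1 member at an unadjusted p below 0.05 and 0 calls with DESeq2. Psmd13 differed most clearly, by 0.49 ± 0.07 (adjusted p = 6.55e-05), from 0.24 without YF to 0.73 with it. Psmd9 (0.47), Psmb2 (0.40), Psmc4 (0.30), Psmd6 (0.29), Psmd2 (0.28), Psmb6 (0.23) and Psmb10 (0.40) followed. The calls of Psmd13, Psmd9 and Psmb2 held on leaving out any library, and each of the other 5 ended without at least 1 of them. The Psmb10 call was also lost with DESeq2. The count fell to 4 without FK228 replicate 2 and to 5 without YF replicate 1, YF replicate 3 or FK228+YF replicate 1.

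The partner genes of the proteasome, chosen by function, comprised 40 genes, all tested. With FK228, 35% were higher and 25% lower (14 and 10 genes, edgeR), against 33.2% and 35.5% of all genes. With YF these were 20% and 12.5% (8 and 5 genes), against 18% and 14.6%, and with both 52.5% and 27.5% (21 and 11), against 38.8% and 38.6%. With FK228 and with YF the share called higher was close to the background. Among the 5 chaperones that assemble the core, 0 were called with FK228 or with YF (edgeR; also 0 at an unadjusted p below 0.05 and with DESeq2), and 4 were higher with both treatments, where 38.8% of all genes were. Of these 5 genes, 1 was called higher with FK228 without FK228 replicate 3, 1 lower without FK228 replicate 1, and 1 higher with YF without control replicate 1. Pomp, which guides the last step of core assembly, was at 449, 395 and 385 TPM in control, 353, 363 and 370 in FK228, 463, 479 and 467 in YF and 611, 604 and 634 in FK228+YF libraries. It rose by 0.63 ± 0.06 with both (adjusted p = 4.869e-09), and the values with FK228 (-0.07) and YF (0.12) were not called. Psmg1, Psmg2 and Psmg3 rose by 0.26, 0.48 and 0.44 with both.

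Nfe2l1, the factor that induces proteasome genes when proteasome activity is short, rose by 0.23 ± 0.06 with both treatments (adjusted p = 0.001905, edgeR). With FK228 its value, 0.11, was not called, but was in 4 alternatives (0.19 without FK228 replicate 1). With YF it was called at 0.16 (adjusted p = 0.04738), and the call was lost in 12 of 18 alternatives, among them leaving out control replicates 2 or 3, FK228 replicate 2, YF replicates 1 or 3 or any FK228+YF library (0.14 to 0.16). Its small Maf partners moved apart. Mafk rose by 0.75, 0.47 and 1.11 with FK228, YF and both, Mafg fell by 0.24 with FK228 and by 0.52 with both, and Maff fell by 0.34 with both; Mafg with YF (-0.01) and Maff with FK228 (-0.19) and YF (0.02) were not called. The ubiquitin-activating enzyme Uba6 rose by 0.68, 0.59 and 1.34, and the ubiquitin shuttle Ubqln4 fell by 0.92 with FK228 and by 1.05 with both.

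The genes that pass proteasome products to MHC class I were also divided. Tap1, which pumps peptides into the endoplasmic reticulum, starts at 34187556 on chromosome 17, facing Psmb9, whose start is at 34187330 on the other strand. It was at 1.07, 1.49 and 1.06 TPM in control, 1.28, 1.97 and 2.18 in FK228, 2.32, 2.14 and 2.36 in YF and 2.05, 2.02 and 2.45 in FK228+YF libraries, and it rose by 0.67 ± 0.17 (adjusted p = 0.001671, edgeR), 0.83 ± 0.17 (adjusted p = 0.000734) and 0.89 ± 0.17 (adjusted p = 6.261e-05). Whether reads were counted by strand is not given, so reads of the pair near their starts may not be told apart. Psmb9 was higher with both treatments than with FK228 (1.34 ± 0.19) or YF alone (1.46 ± 0.19), whereas Tap1 with both was not called against FK228 (0.22) or YF (0.06). Tap2, the second chain of the pump, rose by 1.12 with FK228 and by 1.34 with both, and its value with YF, 0.57, was not called (adjusted p = 0.05523); it ranged from 0.34 without control replicate 3 to 0.91 without control replicate 2, where it was called, as it was with no count filter (0.56).

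Among the regulators, Nlrc5, the transactivator of MHC class I genes, had 3, 5 and 5 counts in control, 75, 78 and 73 in FK228, 52, 46 and 44 in YF and 126, 142 and 137 in FK228+YF libraries. This was 4.16 ± 0.27 higher with FK228 (adjusted p = 1.471e-11, edgeR), 3.41 ± 0.29 with YF (adjusted p = 1.369e-08) and 5.01 ± 0.25 with both (adjusted p = 8.436e-14). Irf1, an interferon-induced factor, fell by 0.29, 0.50 and 1.01. Erap1, which trims peptides, fell by 1.84 with FK228 and by 2.70 with both, and by 0.31 with YF, a call that ended without control replicate 2 (-0.26). Tapbp, which helps load peptides, fell by 0.70, 0.60 and 0.87, as Psmb10, Psme1 and Psme2 did, so within this set Psmb9, Tap1 and Nlrc5 were higher and Psmb10, Psme1, Psme2, Erap1, Tapbp and Irf1 lower under every treatment.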

How the data were processed

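RNA of 12 AML12 libraries was sequenced as paired ends on BGISEQ, per the labels' protocols. GRCm38.p6, RSEM 1.2.12 and Bowtie2 2.2.5, as well as HISAT2 2.0.4 and DESeq2 1.4.5, are listed in the submitters' processing notes, with no roles. The expected counts, TPM and FPKM per gene are the authors' values as deposited, in 1 table; 16.6% of the expected counts were not whole and were rounded here. The 12 columns of normalized counts and 16 of group averages were not used.

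All 13346 genes passing filterByExpr were fitted over all 12 libraries with edgeR 4.0.16 (TMM scaling, robust quasi-likelihood test, R 4.3.3; limma 3.58.1 loaded), with Benjamini-Hochberg adjustment over all of them and a call at an adjusted p below 0.05. Errors of log2 fold changes are SEs from the F statistic. CPM use TMM-scaled library sizes; levels of different genes are compared in TPM. Alternatives were DESeq2 1.42.0, RLE scaling, the compared groups alone, no filter, at least 5 CPM in 3 libraries, the replicate number as a block, leaving out each library, and FPKM for the pair shares. The script was tested on simulated data.

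Members and lists were chosen with earlier results of these data known. The catalytic pairs and activators were named by rule, with the 3 highest and 3 lowest other members at 5 CPM or more in each comparison with control, and the same for the partners plus Nfe2l1, Pomp, Tap1 and Psmf1 (log2 0.38 with both treatments, called); other genes were named after their values were seen. Same-numbered replicates did not deviate together (correlations -0.215 to 0.0887), so no pairing was used. Replicates differed by more than sampling noise. Summed endothelial markers were 0.0385 to 0.881 CPM over the libraries. Psma8 was not analysed here. Some genes of the partner and marker lists are not reported here by name.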

Additional observations from a re-analysis of the deposited data

Results flagged for a closer look

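The effect of FK228 on 8 proteasome genes differed between cells with and without YF by the interaction term of the edgeR fit over 12 libraries, given here as the effect with YF minus that without (log2 ± SE). It was 0.486 ± 0.07 for Psmd13 (adjusted p = 6.55e-05), from 0.24 to 0.73. For Psmd9 it was 0.467 ± 0.10 (adjusted p = 0.00153), from -0.44 to 0.03. For Psmb2 it was 0.401 ± 0.08 (adjusted p = 0.00111), from 0.23 to 0.63. These 3 kept their call in every alternative tried.

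For Psmc4 it was 0.296 ± 0.08 (adjusted p = 0.0114) and for Psmd2 0.278 ± 0.08 (adjusted p = 0.0127); both calls ended without FK228 replicate 2 (0.25 and 0.23). For Psmd6 it was 0.286 ± 0.09 (adjusted p = 0.0193), from -0.12 to 0.16, and the call ended without YF replicate 1 (0.23), YF replicate 3 (0.27) or FK228+YF replicate 1 (0.25). For Psmb6 it was 0.227 ± 0.08 (adjusted p = 0.0414) and for Psmb10 0.403 ± 0.15 (adjusted p = 0.0448). The call of Psmb6 ended on leaving out any library other than control replicate 1 and FK228 replicate 1 (0.18 to 0.23), and with no count filter. That of Psmb10 ended on leaving out any library other than control replicate 1 and FK228+YF replicate 3 (0.31 to 0.43). The Psmb10 call was also lost with DESeq2 and with no count filter.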

How the results depend on the processing

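Of 149 member values examined, 126 were called; 102 of the calls held under every alternative, 24 were lost under at least 1, and none changed sign. Another scaling moved the median of all genes by at most 0.0326. The number of members higher with YF, 2, was 1 with RLE scaling, 1 with no filter, 1 on the compared groups alone, 1 with the replicate block, and 1 to 2 when single libraries were left out, because the call of Psmd13 was lost. The number higher in the interaction, 8, was 4 to 10 when single libraries were left out, and 6 with the replicate block. The block ended the calls of Psmb6 and Psmb10. All other counts over the whole member list and the whole partner list stayed within 1.5 times under every alternative run, the replicate block included. Counts by role moved further, as given with the results for single libraries. Of the others, the 1 cap assembly chaperone lower with YF was not called without control replicate 1 or YF replicates 1 or 3, and 1 of the 2 activators lower with YF was not without control replicate 2. In the compared groups alone 1 ATPase was lower with FK228 and 1 core chaperone with both treatments, the latter also without FK228 replicate 3, and with no filter 1 ATPase was higher with both. As the numbers do not pair the libraries, the block is given only here. The interaction could not be fitted on fewer groups.

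Signs changed only for values that were not called, and the cause was not tested. For Psmc6 with FK228 the value was 0.0004703 (RLE), 0.004349 (filter of 5 CPM), 0.0004745 (DESeq2), 0.005922 (compared groups) and -0.06106 to 0.01756 without single libraries. For Psmb5 with YF it was -0.002797 (RLE), -0.002276 (no filter), -0.002791 (DESeq2) and -0.01317 to 0.03159 without single libraries. For Psmg3 with YF it was -0.002218 (RLE), -0.002081 (no filter), -0.002318 (DESeq2) and -0.06877 to 0.07833. For Psme3 with both it was -0.02009 (no filter) and -0.02127 to 0.0235. Leaving out single libraries gave -0.1093 to 0.01716 for Psma7 and -0.003172 to 0.3029 for Ddi2 with FK228. With YF it gave -0.5424 to 0.06454 for Psmb8, -0.004428 to 0.03555 for Psme3 and -0.03439 to 0.06527 for Psmg2, and with both -0.4661 to 0.04606 for Psmb8. Depth limits Psmb8, Psmb9 in control cells and Psmb11 most.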
